A study of Homo sapiens with 3 samples.

Results

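The mRNA levels of 10 genes of hypoxia sensing and response, out of the 16149 genes listed in any library, were examined in the parental hepatocellular carcinoma (HCC) cell line HCCLM3 and in 2 of its subclones. The genes were taken by symbol, and a gene missing from a library's list was set to 0. They were HIF1A and EPAS1, the oxygen-regulated alpha subunits of the hypoxia-inducible factors (HIFs), VHL, EGLN1 and EGLN3 of the oxygen-sensing arm, and the target genes CA9, BNIP3, ADM, NDRG1 and ANKRD37. When oxygen is present, the EGLN prolyl hydroxylases modify the HIF alpha subunits, and the ubiquitin ligase that contains VHL then marks them for degradation. When oxygen is short, the alpha subunits are stable, pair with ARNT and activate genes through hypoxia response elements, many of which serve glycolysis, pH control, vessel growth and mitochondrial turnover. HIF activity is set largely at the protein level, whereas only mRNA was measured here.

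HCCLM3 is a human HCC line, and the label of the parent gave it a low metastatic ability, although the study's methods named its red fluorescent derivative HCCLM3-R, the parental line there, as highly metastatic. Subclone 1 was labelled as more metastatic, with lung as its site, and subclone 2 as able to reach both lung and celiac lymph node. In the study's methods the subclones were each grown from 1 cell of a metastasis in a nude mouse, so each stands for 1 clone, and the sources used here do not say which named clones were sequenced. All 3 lines were grown in DMEM medium, with no hypoxic treatment named and no oxygen level given. One library was made per line, so there was no replicate and no test: every interval below is a 95% interval for counting error only, and every ratio compares libraries rather than conditions. Values are RPKM (reads per kilobase of transcript, scaled to sequencing depth), which allow for gene length and sequencing depth only. The counting intervals do not cover other differences between genes, and some ratios between libraries depended on the scaling used. The reads behind them, recovered from the RPKM values, totalled 4488825, 4609696 and 4725150 for the parent, subclone 1 and subclone 2. In such bulk libraries, fewer cells with a transcript and less transcript per cell cannot be told apart, and the strand used in counting was not given in the sources used here, so reads of overlapping antisense genes cannot be separated.

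All 10 hepatocyte lineage markers were listed, but mainly as the epithelial keratins: KRT8 was at 1614, 1641 and 1742 RPKM in the parent, subclone 1 and subclone 2. ALB was at 2.46, 49.5 and 68.8 RPKM and AFP at 2.41, 4.16 and 4.27 RPKM, so ALB was low in the parent and AFP in every library. The other secretory markers did not follow ALB as a set. TF was at 5.71, 30.3 and 5.88 RPKM, and APOA1, TTR and SERPINA1 were below 1 RPKM in every library. APOB rose in the same order as ALB, up to 4.17 RPKM in subclone 2. Of the markers of other cell types, 6 of 8 endothelial, 6 of 8 fibroblast and 4 of 7 leukocyte genes were listed, with TIE1, ERG, PDGFRB, FAP, CSF1R, CD3E and MS4A1 at 0 in every library. Their summed levels in the same library order were 5.11, 12.02 and 7.66 RPKM for the endothelial list, 15.7, 31.2 and 24.3 RPKM for the fibroblast list, which LUM led at 10.1, 24.0 and 21.0 RPKM while COL3A1 went the other way at 4.42, 2.21 and 0.463 RPKM, and 76.1, 114 and 101 RPKM for the leukocyte list, in which CD68 made up nearly the whole sum. These 3 sums were lowest in the parent, as were the hepatocyte lineage sum, at 2590, 2814 and 2890 RPKM, and the level of CA9 below. The part of these sums in the results was not tested.

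The promoters that hold ACGTG, the more common core of a hypoxia response element, are shown because CA9, BNIP3, ANKRD37 and EGLN1 have it in common. Of these, CA9 was higher and EGLN1 lower in both subclones than in the parent. The levels of BNIP3 overlapped between the libraries, and for ANKRD37 a difference was not detectable. Each sequence is the 250 bases before the annotated start in RefSeq on GRCh38.p14, written 5′ to 3′ on the strand of the gene, with capitals marking the searched letters ACGTG or GCGTG on either strand. The CA9 promoter, chr9:35673678-35673927 on the plus strand, had 1 ACGTG core, 18 bases before the start. The ANKRD37 promoter, chr4:185396591-185396840 on the plus strand, had 3 matches, of which those 162 and 161 bases before the start are the 2 strands of 1 CACGTG and the other lies 143 bases before it. The EGLN1 promoter, chr1:231422288-231422537 on the minus strand, had 1 core, 13 bases before the start. The BNIP3 promoter, chr10:131981924-131982173 on the minus strand, had 2 overlapping ACGTG matches in 1 CACGTG at 134 and 133 bases before the start, with 4 GCGTG matches around it.
CA9: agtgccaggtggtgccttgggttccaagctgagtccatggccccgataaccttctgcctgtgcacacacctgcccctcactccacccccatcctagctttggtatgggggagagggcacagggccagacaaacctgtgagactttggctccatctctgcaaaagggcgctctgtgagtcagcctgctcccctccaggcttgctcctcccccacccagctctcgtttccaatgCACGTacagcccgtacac
ANKRD37: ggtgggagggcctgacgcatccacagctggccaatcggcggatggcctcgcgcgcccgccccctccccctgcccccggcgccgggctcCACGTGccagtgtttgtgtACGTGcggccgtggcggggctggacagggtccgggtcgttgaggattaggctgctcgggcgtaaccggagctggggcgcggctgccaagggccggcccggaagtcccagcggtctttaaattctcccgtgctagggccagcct
EGLN1: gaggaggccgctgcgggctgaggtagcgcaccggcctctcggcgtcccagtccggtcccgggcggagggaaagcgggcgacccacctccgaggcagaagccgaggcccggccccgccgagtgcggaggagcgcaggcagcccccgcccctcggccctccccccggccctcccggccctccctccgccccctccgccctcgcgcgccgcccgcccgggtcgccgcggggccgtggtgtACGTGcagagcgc
BNIP3: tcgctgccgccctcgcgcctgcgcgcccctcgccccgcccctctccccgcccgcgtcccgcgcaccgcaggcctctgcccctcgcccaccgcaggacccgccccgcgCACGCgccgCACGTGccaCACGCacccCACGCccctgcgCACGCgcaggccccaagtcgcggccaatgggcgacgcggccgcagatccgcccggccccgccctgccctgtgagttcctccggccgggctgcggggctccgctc
Promoters of 8 of the 10 genes were searched, and 4 of these genes held ACGTG, beside 18.5% of all 35116 promoters listed. NDRG1 and VHL were not among the genes searched, so the counts do not cover them. A promoter with ACGTG or GCGTG was found for 7 of the 8 genes, beside 43.2% of all promoters, with HIF1A, EPAS1 and ADM holding 1 GCGTG each. These counts take any promoter of a gene, whereas the shares are per promoter, so the measures are unlike. HIF1A had a further promoter without a match. A match describes letters in this window and is not a binding site, and binding was not measured.

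CA9 was higher in both subclones than in the parent, and the hydroxylase gene EGLN1 was lower in both, in each case with counting intervals that left out 1. NDRG1 and EPAS1 were higher in both by smaller ratios. VHL was lower than in the parent in subclone 1, and HIF1A was close to the parent in both, at ratios of 1.08 and 0.948, the former turning below 1 when scaled to ACTB. These are ratios of 1 library to 1 library, and the parent library is shared by both.

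HIF1A, the more widely expressed alpha subunit, was at 89.4 RPKM (85.1 to 93.8) in the parent, 96.2 RPKM (91.9 to 101) in subclone 1 and 84.8 RPKM (80.7 to 89.0) in subclone 2, from 1638, 1811 and 1635 reads. The ratio of subclone 1 to the parent was 1.08 (1.01 to 1.15), a log2 ratio of 0.11 that turned to -0.03 when the libraries were scaled to ACTB. The ratio of subclone 2 to the parent was 0.948 (0.885 to 1.02). HIF1A thus had nearly the same level in the 3 libraries, with subclone 2 below subclone 1 by a ratio of 0.881 (0.823 to 0.942), or 0.898 to 1.03 for the interval scaled to ACTB.

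EPAS1, which encodes HIF-2 alpha, was at 39.1 RPKM (36.6 to 41.7) in the parent, 55.7 RPKM (52.7 to 58.7) in subclone 1 and 60.6 RPKM (57.5 to 63.7) in subclone 2, from 910, 1330 and 1484 reads. Both subclones lay above the parent with intervals that did not overlap its own, by ratios of 1.42 (1.31 to 1.55) and 1.55 (1.43 to 1.68). Subclone 2 was above subclone 1 by 1.09 (1.01 to 1.17), an interval that held 1 under median centring and the upper quartile. The ratio of EPAS1 to HIF1A RPKM went from 0.437 (0.403 to 0.475) in the parent to 0.578 (0.538 to 0.621) in subclone 1 and was 0.715 (0.666 to 0.767) in subclone 2. HIF1A therefore remained the more abundant of the alpha subunit mRNAs in every library, by the least in subclone 2.

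EGLN1, or PHD2, the main prolyl hydroxylase acting on HIF alpha in most cells, was at 27.6 RPKM (25.8 to 29.5) in the parent, 18.7 RPKM (17.3 to 20.3) in subclone 1 and 19.2 RPKM (17.7 to 20.7) in subclone 2, from 879, 613 and 644 reads. The parent was the highest, and the subclones overlapped each other. The ratios over the parent were 0.679 (0.612 to 0.754) and 0.696 (0.628 to 0.771), at the 8.26th and 9.16th percentiles of the ratios of all genes. The ratio of subclone 2 to subclone 1 was 1.02 (0.916 to 1.15), a log2 ratio of 0.04 that turned to -0.01 when scaled to the upper quartile.

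EGLN3, or PHD3, a hydroxylase whose gene is itself a HIF target in many cells, had 0 reads in the parent, 1 read in subclone 1 and 4 reads in subclone 2. These reads gave 0.0797 RPKM (0.00202 to 0.444) in subclone 1 and 0.311 RPKM (0.0847 to 0.796) in subclone 2. A count of 0 in the parent allowed up to 0.246 RPKM, taking 3 reads as the limit. The gene was near or below detection in all 3 libraries, no ratio is given for subclone 1 to the parent, and the exact lower bound on the ratio of subclone 2 to the parent was 0.627, so a difference was not detectable at this depth.

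VHL, the substrate-binding part of the ubiquitin ligase, was at 20.1 RPKM (18.2 to 22.1) in the parent, 15.8 RPKM (14.1 to 17.6) in subclone 1 and 21.8 RPKM (19.8 to 23.8) in subclone 2, from 411, 332 and 469 reads. Subclone 1 was the lowest and did not overlap the other libraries, with a ratio to the parent of 0.787 (0.679 to 0.911). The ratio of subclone 2 to the parent was 1.08 (0.948 to 1.24), an interval that holds 1. Subclone 2 was above subclone 1 by 1.38 (1.19 to 1.59), at the 92.7th percentile of all genes. Beside the lower EGLN1 this gave ratios of EGLN1 to VHL RPKM of 1.37 (1.22 to 1.55), 1.19 (1.04 to 1.36) and 0.882 (0.782 to 0.995) in the parent, subclone 1 and subclone 2.

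**Figure D1:**
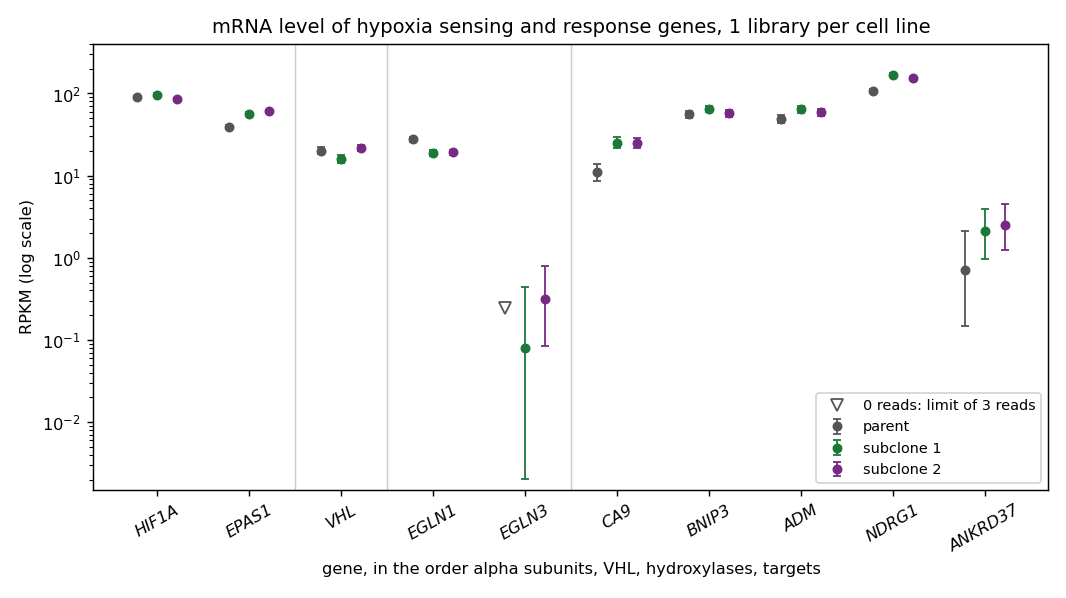
mRNA level of the 10 genes in RPKM (log axis) in the parent, subclone 1 and subclone 2, with 95% counting intervals as bars and an open triangle for the limit of 3 reads where a library had 0 reads. CA9 stood at 11.0 RPKM in the parent and near 25 RPKM in both subclones, EGLN1 was highest in the parent, and EGLN3 rested on at most 4 reads.

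CA9, the membrane carbonic anhydrase IX that acidifies the cell surface and is widely used as a hypoxia marker, was at 11.0 RPKM (8.67 to 13.7) in the parent, 25.3 RPKM (21.8 to 29.2) in subclone 1 and 24.9 RPKM (21.5 to 28.8) in subclone 2, from 77, 182 and 184 reads. The parent lay below both subclones without overlap. The ratios over the parent were 2.30 (1.75 to 3.04) and 2.27 (1.73 to 3.00), at the 96.4th and 96.0th percentiles of all genes. The subclones were close to each other, with a ratio of 0.986 (0.799 to 1.22) whose log2 value of -0.02 turned to 0.11 when scaled to ACTB.

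NDRG1, a hypoxia- and differentiation-responsive gene, was the most abundant of the 10 in every library, at 108.0 RPKM (102.9 to 113.2) in the parent, 168 RPKM (162 to 175) in subclone 1 and 152 RPKM (147 to 158) in subclone 2, from 1706, 2734 and 2535 reads. The intervals of the 3 libraries did not overlap. The ratios over the parent were 1.56 (1.47 to 1.66) and 1.41 (1.33 to 1.502), and that of subclone 2 to subclone 1 was 0.905 (0.857 to 0.955), for which the log2 value moved from -0.14 to -0.02 when scaled to ACTB.

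ADM, which encodes the vasoactive peptide adrenomedullin, was at 49.5 RPKM (44.2 to 55.2) in the parent, 63.9 RPKM (58.0 to 70.3) in subclone 1 and 59.2 RPKM (53.5 to 65.2) in subclone 2, from 322, 427 and 405 reads. The ratios over the parent were 1.29 (1.11 to 1.497) and 1.19 (1.03 to 1.39), and subclone 2 overlapped both other libraries. Between the subclones the ratio was 0.925 (0.806 to 1.06), a log2 value of -0.11 that turned to 0.01 when scaled to ACTB.

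BNIP3, a mitochondrial receptor for mitophagy, was at 55.7 RPKM (50.3 to 61.6), 65.0 RPKM (59.2 to 71.2) and 57.6 RPKM (52.2 to 63.4) in the parent, subclone 1 and subclone 2, from 384, 460 and 418 reads. The levels of the 3 libraries overlapped. The ratio of subclone 1 to the parent was 1.17 (1.02 to 1.34), that of subclone 2 to the parent 1.03 (0.898 to 1.19) and that of subclone 2 to subclone 1 was 0.886 (0.775 to 1.01). The ratio of CA9 to BNIP3 RPKM was 0.197 (0.152 to 0.252) in the parent, against 0.389 (0.326 to 0.463) for subclone 1 and 0.433 (0.362 to 0.516) for subclone 2, so these targets with an ACGTG core did not keep 1 proportion.

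ANKRD37, a little-studied ankyrin repeat gene known as a HIF target, had 3, 9 and 11 reads, or 0.716 RPKM (0.148 to 2.09), 2.09 RPKM (0.956 to 3.97) and 2.49 RPKM (1.24 to 4.46), in the parent, subclone 1 and subclone 2. The ratios over the parent were 2.92 (0.729 to 16.8) and 3.48 (0.920 to 19.4). Although these ratios were the highest among the 9 genes with a mean of at least 1 RPKM, their intervals held 1, and a difference was not detectable at this depth.

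The order of the levels changed between the libraries. In the parent it ran from NDRG1 and HIF1A through BNIP3, ADM, EPAS1, EGLN1, VHL and CA9 to ANKRD37 and EGLN3. There the intervals overlapped for the neighbours BNIP3 and ADM, and for ANKRD37 and EGLN3. In subclone 1, CA9 stood above EGLN1 and VHL without overlap, and the neighbours BNIP3 and ADM, ADM and EPAS1, and EGLN1 and VHL overlapped. In subclone 2, EPAS1, ADM and BNIP3 overlapped as neighbours, as did CA9 with VHL and VHL with EGLN1. NDRG1 and HIF1A kept the first places in all 3, at the 96.0th, 97.7th and 97.4th percentiles of the listed genes for NDRG1 and at the 95.01st, 95.4th and 94.6th for HIF1A. CA9 was at the 61.8th percentile in the parent, the 80.1st in subclone 1 and the 79.2nd in subclone 2.

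Of the 10 genes, 9 had a mean of at least 1 RPKM over the libraries, and EGLN3 did not. Among these 9, CA9 and ANKRD37 reached a 2-fold higher level in subclone 1, relative to the parent, and 0 reached a 2-fold lower one. Of the 11370 genes past this filter, 4.9% were higher and 1.82% lower. ANKRD37, at 0.716 RPKM in the parent and 2.09 and 2.49 RPKM in the subclones, passed the filter only through the subclones. Its intervals over the parent held 1, and with a mean of at least 5 RPKM only CA9 was left. The interval lay above 1 for 6 of the 9 (HIF1A, EPAS1, CA9, BNIP3, ADM and NDRG1) and below 1 for 2 (VHL and EGLN1), where it did so for 20.1% and 19.3% of all genes, and when scaled to ACTB it lay above 1 for 4, with HIF1A turned below the parent and the interval of BNIP3 holding 1. The 9 genes had a median of 51.8 RPKM and 1262 reads over the 3 libraries, against 11.1 RPKM and 478 reads for all genes, although CA9 and ANKRD37 had fewer reads than the all-gene median.

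In subclone 2 over the parent, the same CA9 and ANKRD37 were at least 2-fold higher and 0 were lower, where 5.33% of all genes were higher and 2.16% lower. The interval lay above 1 for EPAS1, CA9, ADM and NDRG1 and below 1 for EGLN1, or 4 and 1 of 9, where it did so for 22.9% and 18.1% of all genes, and with median centring or the upper quartile HIF1A was below 1 as well, making 4 and 2. In subclone 2 over subclone 1, 0 of the 9 were 2-fold higher or lower, where 1.42% and 1.39% of all genes were. The interval lay above 1 for EPAS1 and VHL and below 1 for HIF1A and NDRG1, 2 of 9 each way, where it did so for 11.8% and 8.61% of all genes. That balance depended on the scaling: median centring and the upper quartile gave 1 above (VHL) and 3 below (HIF1A, BNIP3 and NDRG1), and ACTB gave 2 above (EPAS1 and VHL) and 0 below. The median log2 ratio of the 9 genes was 0.37, 0.26 and -0.02 in the 3 comparisons, beside 0.00, 0.04 and 0.03 over all genes.

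**Figure D2:**
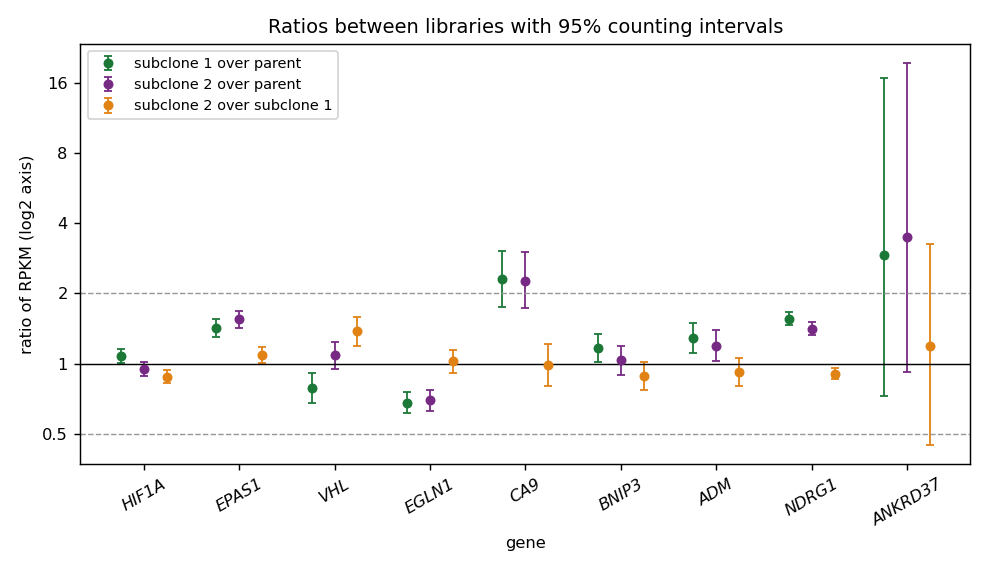
Ratios of RPKM between libraries (log2 axis) for the 9 genes with a mean of at least 1 RPKM, with 95% counting intervals and dashed lines at 2-fold. CA9 lay near 2.3 in both subclones over the parent and EGLN1 near 0.7, ANKRD37 had intervals that held 1, and the ratio of HIF1A in subclone 1 turned below 1 when scaled to ACTB.

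The other genes of the HIF machinery were a list of 15, of which 12 had a mean of at least 1 RPKM. In the 3 comparisons 0 of the 12 differed by 2-fold. The interval lay above 1 for 3 of 12 and below 1 for 1 of 12 in subclone 1 over the parent, for 2 and 1 in subclone 2 over the parent, and for 1 and 0 between the subclones. In percent this was 25% above and 8.33% below, 16.7% and 8.33%, and 8.33% and 0%, beside the shares of all genes of 20.1% and 19.3%, 22.9% and 18.1%, and 11.8% and 8.61%. When scaled to ACTB the counts were 1 above and 3 below, 2 and 1, and 4 and 0, and with median centring 0 and 0 between the subclones. These genes are named after their values were seen. ARNT, the beta subunit that pairs with HIF alpha, was at 17.9, 21.0 and 21.9 RPKM in the parent, subclone 1 and subclone 2, with ratios over the parent of 1.17 (1.02 to 1.34) and 1.22 (1.07 to 1.40). CITED2, which competes with HIF alpha for its coactivator, was at 29.5, 45.4 and 43.2 RPKM, with ratios of 1.54 (1.23 to 1.93) and 1.46 (1.16 to 1.84). CITED2 stayed above 1 in both subclones on every scale, whereas the interval of ARNT in subclone 1 held 1 when scaled to ACTB (0.931 to 1.22).

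EP300, that coactivator, was at 15.8, 12.8 and 13.7 RPKM, with ratios of 0.811 (0.720 to 0.913) and 0.864 (0.770 to 0.970), and so was lower in both subclones. P4HTM, a transmembrane prolyl hydroxylase, was above the parent in subclone 1 by 1.64 (1.04 to 2.63), from 54 against 32 reads, with an interval of 0.951 to 2.40 when scaled to ACTB, and CREBBP, the paralogue of EP300, was above subclone 1 in subclone 2 by 1.15 (1.01 to 1.31), which held 1 under median centring. HIF1AN, the asparaginyl hydroxylase that limits HIF transactivation, had 7.46, 8.05 and 7.15 RPKM, and the intervals of its ratios over the parent held 1. ARNT2, also named after its values were seen and below the filter on the mean, had 29, 0 and 9 reads, with an exact upper bound of 0.132 on the ratio of subclone 1 to the parent and a ratio of 0.295 (0.123 to 0.640) for subclone 2.

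The other HIF targets were a list of 60, with 58 listed in a library and 54 past the filter. In subclone 1 over the parent, 9 of 54 were higher by 2-fold or more and 0 lower, and the interval lay above 1 for 29 (53.7%) and below 1 for 7 (13.0%). In subclone 2 over the parent, 6 were at least 2-fold higher and 1 lower, with 22 intervals above 1 (40.7%) and 12 below (22.2%). The higher genes in both counts include BHLHE41, which passed the filter only through the subclones, at 0.352 RPKM in the parent. Between the subclones, 0 were 2-fold higher and 1 lower in subclone 2, with 3 intervals above 1 (5.56%) and 22 below (40.7%). The background shares are those given above for all genes, but the list had a median level of 28.7 RPKM and 1114 reads, more than the median of all genes.

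The median log2 ratio of the 54 targets was 0.23, 0.14 and -0.13 in the 3 comparisons, and it was 0.10, 0.13 and -0.01 when scaled to ACTB, with 24 intervals above 1 and 12 below, 22 and 13, and 8 and 14. The lower level of the list in subclone 2 than in subclone 1 was therefore nearly lost on that scale. Scaling to ACTB moved the median of all genes by -0.13 in subclone 1 over the parent and by 0.12 between the subclones. Median centring and the upper quartile kept the lower level, at medians of -0.16 and -0.18. They gave 0 intervals above 1 and 23 and 24 below. With ACTB the share of higher genes among all genes that differed by 2-fold went from 72.9% to 57.8% in subclone 1 over the parent and from 50.5% to 63.8% in subclone 2 over subclone 1.

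**Figure D3:**
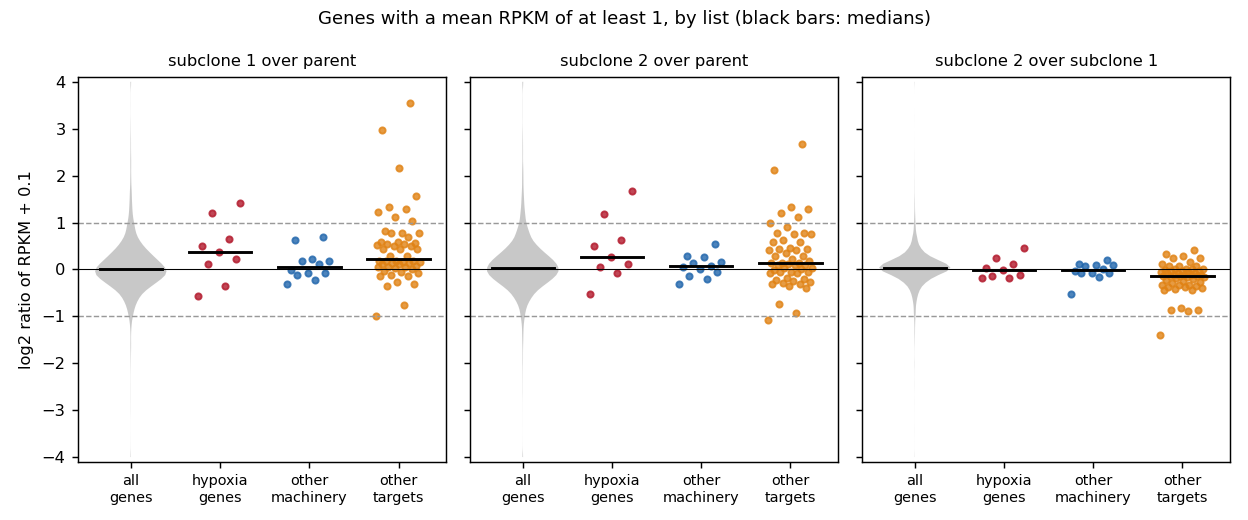
Log2 ratios of RPKM + 0.1 for all genes with a mean of at least 1 RPKM (grey) and for the hypoxia genes, the other HIF machinery and the other HIF targets (points, 1 per gene, with the median as a black bar), in the 3 comparisons. The median of the other targets was 0.23 and 0.14 over the parent and -0.13 between the subclones. The last was -0.01 when scaled to ACTB, -0.16 with median centring and -0.18 with the upper quartile.

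Glucose uptake and glycolysis were the largest group among the targets, with 17 of 19 genes past the filter. Over the parent, 10 of the 17 had intervals above 1 and 1 below in subclone 1, and 5 and 5 in subclone 2, but when scaled to ACTB these were 7 and 5, and 5 and 6. Between the subclones all 17 had a ratio below 1 in subclone 2, with 11 intervals below 1. Median centring and the upper quartile each kept all 17 below, with 11 intervals below 1. When scaled to ACTB 8 were above and 9 below, with 1 interval above 1 and 4 below. SLC2A1, the glucose transporter GLUT1, was at 47.1, 68.4 and 53.3 RPKM in the parent, subclone 1 and subclone 2, with ratios over the parent of 1.45 (1.33 to 1.59) and 1.13 (1.03 to 1.25). LDHA, lactate dehydrogenase A, was at 581, 661 and 591 RPKM, with ratios of 1.14 (1.10 to 1.18) and 1.02 (0.982 to 1.05), the latter a log2 ratio of 0.02 that turned to -0.01 under median centring. ENO2, a neuronal-type enolase named after its values were seen, was at 31.3, 46.0 and 25.2 RPKM, with ratios of 1.47 (1.28 to 1.69) and 0.805 (0.685 to 0.944), so it was above the parent in subclone 1 and below it in subclone 2.

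SLC16A3, the lactate exporter, was at 49.7, 107.6 and 98.5 RPKM, with ratios over the parent of 2.17 (1.94 to 2.42) and 1.98 (1.77 to 2.22). ALDOC, an aldolase, was at 4.82, 11.99 and 9.15 RPKM, with ratios of 2.49 (1.68 to 3.77) and 1.90 (1.26 to 2.92). Both lay above the parent in both subclones.

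Of the secreted and vascular targets, VEGFA, the endothelial growth factor, was at 24.6, 42.4 and 32.9 RPKM, with ratios of 1.72 (1.52 to 1.95) and 1.34 (1.17 to 1.52) over the parent and 0.775 (0.693 to 0.866) between the subclones. IGFBP3, which binds insulin-like growth factors, was at 31.9, 94.8 and 73.6 RPKM, with ratios over the parent of 2.97 (2.64 to 3.35) and 2.31 (2.04 to 2.61). IGFBP1, its liver relative, was at 13.8, 28.5 and 34.9 RPKM, with ratios of 2.06 (1.62 to 2.63) and 2.53 (2.01 to 3.20). These factors were all higher in the subclones. TGFA, a ligand of the epidermal growth factor receptor, went the other way, at 2.72, 1.32 and 1.24 RPKM, with ratios of 0.487 (0.292 to 0.794) and 0.457 (0.272 to 0.749).

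In the glycogen, lipid and adenylate group, 3 of 7 genes had intervals above 1 and 2 below in each subclone over the parent. PPP1R3C, a glycogen-targeting phosphatase subunit, was at 2.27, 18.6 and 10.2 RPKM, with ratios of 8.19 (5.48 to 12.7) and 4.47 (2.93 to 7.04) over the parent. ANGPTL4, a secreted inhibitor of lipoprotein lipase, was at 10.3, 24.4 and 25.5 RPKM, with ratios of 2.36 (1.84 to 3.05) and 2.47 (1.94 to 3.19), close in size to those of CA9. The genes with intervals below 1, named after their values were seen, were GBE1, the glycogen branching enzyme, with ratios of 0.825 (0.712 to 0.956) and 0.831 (0.718 to 0.962), and VLDLR, a lipoprotein receptor, with 0.808 (0.673 to 0.970) and 0.592 (0.484 to 0.721). In the mitophagy, mTOR and survival group, DDIT4, an inhibitor of mTOR signalling, was at 19.5, 48.8 and 42.0 RPKM, with ratios of 2.51 (2.08 to 3.04) and 2.16 (1.78 to 2.63). PPP1R3C, ANGPTL4 and DDIT4 were higher in both subclones, while GBE1 and VLDLR were lower.

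All 5 collagen and protein folding genes had intervals above 1 in subclone 1 over the parent, and 4 of 5 in subclone 2. Of these, LOX, which crosslinks collagen, was at 3.74, 17.0 and 6.42 RPKM, with ratios over the parent of 4.54 (3.60 to 5.80) and 1.71 (1.31 to 2.25) and a ratio of 0.377 (0.312 to 0.455) between the subclones. LOX was the 1 target below subclone 1 by 2-fold or more in subclone 2. BHLHE41, a transcriptional repressor, had the largest ratios of the named targets but only 6 reads in the parent, at 0.352, 5.20 and 2.79 RPKM, with ratios of 14.8 (6.53 to 41.3) and 7.92 (3.39 to 22.6).

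**Figure D4:**
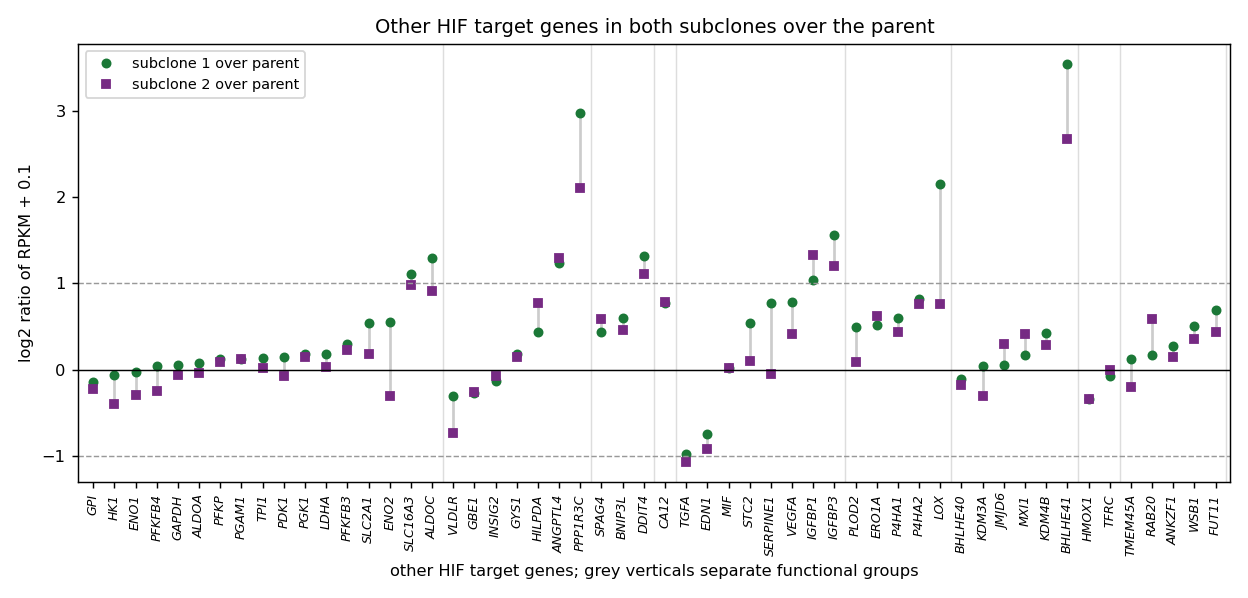
Log2 ratios of RPKM + 0.1 over the parent for the 54 other HIF targets past the filter, ordered by functional group, with circles for subclone 1, squares for subclone 2 and a grey line joining them. BHLHE41 and PPP1R3C lay highest and TGFA and EDN1 lowest, while most glycolytic genes lay near 0, and 8 of 17 in subclone 1 were above 0 and 9 below when scaled to ACTB.

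The gene with the largest log2 ratio of the 10 was EGLN3, so the genes whose pattern over the 3 libraries was nearest to it were sought among the 8211 genes with a mean of at least 5 RPKM, by Euclidean distance of the log2 ratios of both subclones over the parent. They were TRIM31, TMC5, TM4SF5, GATM and UPK1B, at distances from 0.09 to 0.27, but the pattern of EGLN3 rests on 5 reads. For CA9, added after the values were seen, the nearest were CYB5D2 at 0.02, C10orf10 at 0.04, SLC41A2 at 0.05, SNN at 0.08 and FCGRT at 0.09. With 3 libraries, many genes lie near any one pattern, and the distance describes only these libraries.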

How the data were processed

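RNA of 3 HCC lines was sequenced by the submitters with an Illumina TruSeq kit, 1 library per line. The deposited values were RPKM per gene; per the submitters' processing notes the build was hg19, and the aligner, counting and annotation were not given in the sources used here. Whole reads were recovered from the RPKM with the smallest gene length (denominators up to 20000) that gave whole reads in all 3 libraries within 0.05 reads, multiplied where within 2% of a GENCODE v29 transcript; 99.9% of the 11370 genes past the filter came out whole. A shared divisor would understate the reads, and unresolved genes got no interval. Recovery was run on simulated data whose gene lengths were all taken from the same reference transcripts. In the deposited values, 68.6% of the lengths used to set the scale lay within 10% of a transcript. The simulation therefore does not test recovery at other lengths.

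Ratios were log2(RPKM + 0.1), which understates the change of low genes; folds with intervals used reads without a pseudocount. Intervals were exact Poisson (levels) and exact Clopper-Pearson (folds), at 95%. The filter was a mean of at least 1 RPKM, the threshold 2-fold and the limit of a count of 0 was 3 reads. The 10 genes and the lists were chosen with earlier results of these data known. Named were the 10 genes, VEGFA, SLC2A1, LDHA, ANGPTL4, up to 12 listed genes past 2-fold whose interval left out 1, and the 5 nearest patterns of the gene with the largest ratio; other names are said to be chosen after their values were seen. Alternatives were the pseudocount, filter, fold threshold and scaling (median, upper quartile, ACTB). Scripts ran under Python 3.11.15 with scipy 1.17.1 for the intervals, pandas 2.3.3 for the joins and numpy 2.4.6.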

Additional observations from a re-analysis of the deposited data

Results flagged for a closer look

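The log2 ratios of HIF1A and VHL over the parent had opposite signs in the subclones, although for both genes the counting interval of subclone 2 over the parent held 1. For HIF1A they were 0.11 in subclone 1, which turned to -0.03 when scaled to ACTB, and -0.08 in subclone 2, a gap of -0.18 between subclone 2 and subclone 1. For VHL they were -0.34 and 0.12, a gap of 0.46 between subclone 2 and subclone 1 on the log2 scale. With 1 library per line these differences were not tested.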

How the results depend on the processing

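No paired analysis was possible because there is 1 library per line, and none could be left out. Over the alternatives the log2 ratio of CA9 over the parent had a range of 1.06 to 1.21 for subclone 1 and 1.11 to 1.18 for subclone 2. 144 ratios of the 10 genes stayed within their counting interval and 6 did not, all 6 when scaled to ACTB (EPAS1, HIF1A and NDRG1 in subclone 1 over the parent and in subclone 2 over subclone 1), and 148 counts stayed within 1.5 times while 44 did not. The median log2 ratio of those of the 10 genes past each filter had a range of 0.24 to 0.44, 0.19 to 0.38 and -0.07 to 0.11 in the 3 comparisons. The 0.44 and 0.38 came with no filter, which takes in EGLN3, and the 0.19 with a mean of at least 5 RPKM, which leaves out ANKRD37. For the 9 genes themselves the ranges over the parent were 0.24 to 0.38 and 0.22 to 0.26. The median of the other targets had a range of 0.10 to 0.25, 0.10 to 0.14 and -0.18 to -0.01. Counts of genes at least 2-fold higher and lower over all genes, in the order subclone 1 over parent, subclone 2 over parent and subclone 2 over subclone 1, were 557 and 207, 606 and 246, and 161 and 158. With a pseudocount of 1 they were 347 and 117, 380 and 150, and 80 and 77; with no filter 1523 and 884, 1553 and 941, and 842 and 902; with a mean of at least 5 RPKM 233 and 71, 253 and 93, and 43 and 46; with a 1.5-fold threshold 1317 and 848, 1444 and 830, and 540 and 467. Scaled to ACTB, 328 were lower in subclone 1 than in the parent. Of the 10 genes, 1 was higher in each subclone over the parent with a mean of at least 5 RPKM, 1 in subclone 1 with a pseudocount of 1, and 1 in subclone 2 over subclone 1 with no filter. Of the other HIF machinery, 2 were higher in subclone 1 at 1.5-fold, and with no filter 1 was lower in each subclone over the parent and 1 higher in subclone 2 over subclone 1. Of the other targets at 1.5-fold, 16 were higher and 2 lower in subclone 1, 14 higher and 3 lower in subclone 2, and 5 lower between the subclones; 1 was lower in subclone 1 with ACTB or a pseudocount of 0.01, 2 were lower in subclone 2 over the parent and 2 between the subclones with no filter, and 0 in subclone 2 with a mean of at least 5 RPKM or a pseudocount of 1. The cause was not tested beyond these settings. Depth limits EGLN3 and ANKRD37, with at most 11 reads in a library.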
